A study of Homo sapiens with 118 samples.

Results

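A set of 9 serpin genes, grouped as serpins made by liver, was followed: SERPINA1, SERPINA3, SERPINA4, SERPINA5, SERPINA6, SERPINA7, SERPINF1, SERPINB1 and SERPINI1. The name of the group is loose for SERPINB1, whose product stays inside cells, and for SERPINI1, known mainly from neurons. All 9 were chosen by name, as rows of the count table whose name without the trailing probe number was 1 of these symbols. Each gene had 1 row, a detector probe, which gave 9 of the 22068 rows used and 9 of the 19470 gene symbols in the table. The table held 31 further rows for 26 other serpin genes.

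Serpins are a family of proteins named for the serine protease inhibitors among them. An inhibitory serpin offers an exposed loop as bait, and the protease that cuts it is trapped in a covalent complex as the serpin refolds, so each molecule is used up. Hepatocytes secrete most plasma serpins. Alpha-1-antitrypsin (SERPINA1) protects lung tissue from neutrophil elastase, and some members have become hormone carriers that inhibit nothing.

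Gene expression was measured with the whole-transcriptome TempO-Seq panel in HepaRG cells, an established human cell line from a liver tumour that was grown differentiated, although the cell type label calls it progenitor. Such cultures are known to hold hepatocyte-like and biliary-like cells. The cells had been kept for 7 days and then exposed for 72 hours, with daily renewal, to 1 of 8 histone deacetylase inhibitors at 5 concentrations, C1 (lowest) to C5 (highest). The 118 libraries formed 40 groups, of which 38 had 3 libraries, 1 from each of 3 HepaRG batches, and 2 groups had 2 libraries, panobinostat C3 and trichostatin A C4, without batch 3. From C1 to C5 the concentrations ran from 0.041722 to 0.86 µM for apicidin, 0.177222 to 3.9 µM for mocetinostat, 0.001468 to 0.084 µM for panobinostat and 4.94 to 94.5 µM for scriptaid. They ran from 1.143333 to 44 µM for tacedinaline, 0.018811 to 1.5237 µM for trichostatin A and 0.404778 to 23.5 µM for vorinostat. The dose labels of valproic acid ran from 100.478 to 3038, with an unsettled unit, since the treatment protocol gave smaller numbers. Panobinostat, scriptaid, trichostatin A and vorinostat are hydroxamates, mocetinostat and tacedinaline benzamides, apicidin a cyclic tetrapeptide and valproic acid a fatty acid. Scriptaid, tacedinaline and vorinostat were on plate E and the other 5 on plate H, so plate and chemical cannot be told apart.

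Total counts per library lay between 1061359 and 5250260, and were lower at C5 than at C1 on average in every chemical, from a mean of 3038905 to 1485592 in vorinostat. Solvent-control libraries were not used here, so C1 of the same chemical was the reference. A response already full at C1 is missed by this reference. In lysates of whole cultures, fewer cells of a type and less RNA per cell cannot be told apart. Levels are given as CPM, the counts divided by the scaled library size, in batches 1, 2 and 3, in that order. Levels of different probes are not set against each other. A gene was called when edgeR's quasi-likelihood test gave a Benjamini-Hochberg adjusted p under 0.05 over all features and the fold change was at least 1.5. Some libraries stood apart from their group mates. The C1 library of trichostatin A in batch 3 (0.872) had a summed level of the 9 genes of 1448 CPM, against 5528 and 5979 CPM in the same group. Its median correlation over features with its group mates is in parentheses, as for replicate 3 of scriptaid C4 (0.803) and replicate 3 of mocetinostat C2 (0.829). The calls at C5 of trichostatin A, C4 of scriptaid and C2 of mocetinostat are given with and without them, and all other results with them only.

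Of the 9 genes, 5, namely SERPINA6, SERPINA1, SERPINA4, SERPINA5 and SERPINA3 in that order, lie in the serpin cluster of chromosome 14. SERPINA7 lies on chromosome X, SERPINF1 on 17, SERPINB1 on 6 and SERPINI1 on 3. The 250 bases before each RefSeq transcript start (GRCh38.p14) were searched on both strands for the TATA box, spelled TATAAA, and the GC box, spelled GGGCGG, which are promoter elements of many genes. Of the 9 genes, 8 had an entry, SERPINA1 with 2 starts, which gave 9 windows. The TATA box was found in 1 of the 9 windows and the GC box in 3, against 10.7% and 42.6% of all 35116 promoters of that length. Windows are shown for SERPINA7, SERPINA1 and SERPINA4, which were lower at C5 in most chemicals, and for SERPINA5, the cluster neighbour of SERPINA4. SERPINA5 was called lower at C5 in 4 chemicals and higher at C3 in vorinostat. The windows run 5′ to 3′ along the gene, with TATA and GC boxes on either strand in capitals. SERPINA7 is at chrX:106038728-106038977 (minus strand), SERPINA1 at chr14:94388603-94388852 (minus strand), SERPINA4 at chr14:94561192-94561441 (plus strand) and SERPINA5 at chr14:94581176-94581425 (plus strand).
SERPINA7: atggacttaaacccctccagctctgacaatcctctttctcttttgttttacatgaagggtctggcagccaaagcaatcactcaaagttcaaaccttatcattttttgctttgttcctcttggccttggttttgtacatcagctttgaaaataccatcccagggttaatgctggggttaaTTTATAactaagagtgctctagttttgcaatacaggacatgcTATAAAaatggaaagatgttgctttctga
SERPINA1: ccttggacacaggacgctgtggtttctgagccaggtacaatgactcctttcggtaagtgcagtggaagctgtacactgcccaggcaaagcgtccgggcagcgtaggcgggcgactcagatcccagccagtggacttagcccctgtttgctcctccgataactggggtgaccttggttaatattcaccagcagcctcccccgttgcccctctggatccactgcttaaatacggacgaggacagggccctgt
SERPINA4: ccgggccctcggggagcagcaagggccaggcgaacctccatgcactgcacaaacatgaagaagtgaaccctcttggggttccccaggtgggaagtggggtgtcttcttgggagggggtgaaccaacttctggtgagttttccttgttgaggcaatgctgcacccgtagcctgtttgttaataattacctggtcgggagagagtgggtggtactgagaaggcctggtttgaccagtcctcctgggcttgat
SERPINA5: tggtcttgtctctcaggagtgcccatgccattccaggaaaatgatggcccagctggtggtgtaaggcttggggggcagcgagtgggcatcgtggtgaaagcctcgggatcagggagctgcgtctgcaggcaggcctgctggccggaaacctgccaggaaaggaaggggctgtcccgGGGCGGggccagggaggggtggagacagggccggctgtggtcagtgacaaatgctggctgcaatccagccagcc
In SERPINA7 a TATA box began 29 bases before the start on the strand of the gene, and another 71 bases before it on the opposite strand. The GC box of SERPINA5 began 74 bases before the start, and the windows of SERPINA1 and SERPINA4 shown held neither, while the window of the other SERPINA1 start held a GC box 104 bases before it. A STAT3 motif, spelled TTCNNNGAA, was found in 3 windows (SERPINA5, SERPINA6 and SERPINB1) and in 6.57% of all promoters, a C/EBP motif, spelled TTGCNNAA, in 1 (SERPINA7) and in 9.05%, and a forkhead motif, spelled TGTTTAC, in 1 (SERPINA6) and in 2.98%. The binding core of HNF4, spelled CAAAGTCCA, was found in 0 of the 9 windows and in 0.325% of all promoters. These matches describe letters only, and binding was not measured.

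Most of the genes were lower at the highest concentration, and 1 was higher. Of 70 pairs of gene and chemical that could be tested at C5 against C1, 41 were called lower and 5 higher, and all 5 of the latter were SERPINI1. SERPINI1 in trichostatin A and SERPINA6 in vorinostat did not pass the filter on low counts. In tacedinaline 7 genes were called lower and 1 higher, where 20.1% of all features tested were lower and 18.7% higher. Vorinostat had 7 lower and 1 higher (24.9% and 22.7% of all features), and mocetinostat 7 lower and 1 higher (15.7% and 14.8%). Scriptaid had 6 lower and 1 higher (17% and 12.8%), and apicidin 6 lower and 0 higher (15% and 13.8%). Panobinostat had 4 lower and 1 higher (9.46% and 6.77%), and valproic acid 4 lower and 0 higher (6.22% and 4.84%). Trichostatin A had 0 calls by edgeR and by DESeq2, with 1 gene at an unadjusted p under 0.05, where 0.0154% of all features were lower and 0% higher. The floor was a count of 3 or less in each library of the group. The median log2 change of the tested genes, using the bound for those at the floor, was -2.49 in vorinostat, -2.19 in mocetinostat, -2.14 in tacedinaline, -2.08 in scriptaid and -1.37 in apicidin. The fitted medians of vorinostat and tacedinaline were -2.93 and -2.77, so the place of tacedinaline in this order depends on the bounds. Smaller medians of -0.60, -0.35 and -0.03 were those of panobinostat, valproic acid and trichostatin A. The medians of all features tested lay between -0.0018 and 0.0842.

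**Figure D1:**
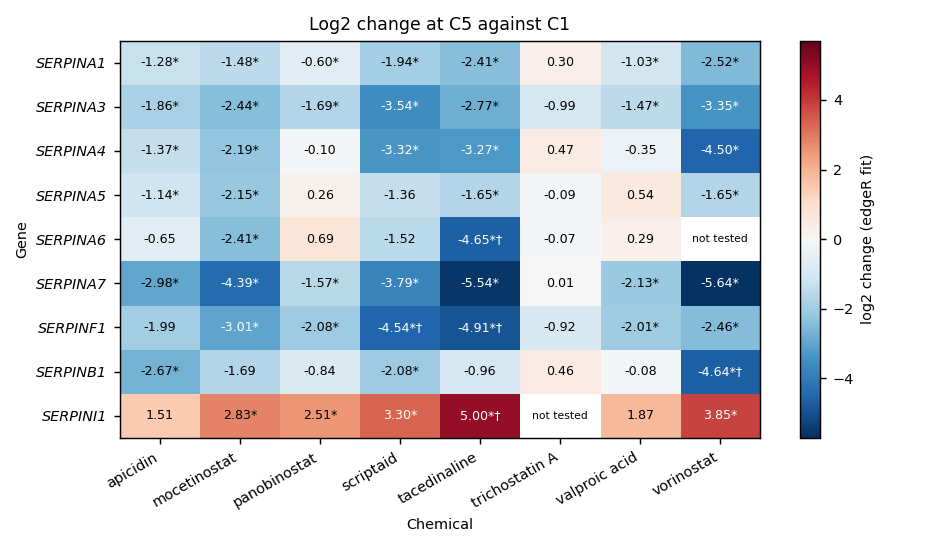
Log2 change at C5 against C1 of the 9 genes (rows) in 8 chemicals (columns), from the edgeR fit. An asterisk marks a called change and a dagger a group at the floor, whose fitted value is no bound. SERPINA7 in vorinostat has the lowest value, -5.64, and SERPINI1 is the row with values above 0 in all chemicals where it was tested.

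The main protease inhibitors of the set, SERPINA1 and SERPINA3, were called lower in 7 chemicals each. SERPINA1, whose product alpha-1-antitrypsin inhibits neutrophil elastase, had 5222, 6408 and 5570.3 CPM at C1 of vorinostat and 1108, 986 and 705 CPM at C5. The groups did not overlap, and SERPINA1 fell by 2.52 in log2 units (SE 0.16, adjusted p = 6.5e-15 by edgeR). In tacedinaline it went from 6086, 4925 and 4957 CPM to 1029, 1125 and 729 CPM. That was a log2 difference of -2.41 (SE 0.13, adjusted p = 1.74e-19 by edgeR), again with no overlap. The smallest called change was that of panobinostat, from 5353, 4656 and 4165 CPM to 3639, 3031 and 2766 CPM, where the groups did not overlap either but the change of -0.60 (SE 0.18, edgeR adjusted p = 0.0221) was near the fold limit. It missed that limit or the test without batch 2 or batch 3. The other called changes of SERPINA1 lay between -1.94 in scriptaid and -1.03 in valproic acid, and the 3 within-batch values were negative in all 7 chemicals.

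SERPINA3 encodes alpha-1-antichymotrypsin, an acute-phase inhibitor of cathepsin G. In scriptaid it had 91.3, 72.1 and 95.9 CPM at C1 and 3.40, 7.10 and 11.1 CPM at C5, the latter from 8, 25 and 23 counts. The groups did not overlap, and SERPINA3 fell by 3.54 in log2 units (SE 0.72, adjusted p = 0.00118 by edgeR). In vorinostat the levels were 78.6, 59.0 and 85.0 CPM and 5.73, 6.18 and 8.19 CPM, with a log2 difference of -3.35 (SE 0.33, adjusted p = 2.78e-10 by edgeR). Its other called changes lay between -2.77 in tacedinaline and -1.47 in valproic acid. The call in valproic acid was lost without batch 1 or batch 2. Batches differed at C1 in mocetinostat, where C1 held 142, 104 and 281 CPM and batch 3 was the highest. Single libraries also stood out at C4, namely batch 1 of scriptaid in 145, 28.8 and 13.0 CPM and batch 3 of valproic acid in 33.4, 42.4 and 145 CPM, and SERPINA3 was not called at C4 of either chemical.

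SERPINA4 encodes kallistatin, an inhibitor of tissue kallikrein, and was called lower in 5 of 8 chemicals. In vorinostat it had 232, 244 and 180.5 CPM at C1 and 6.55, 6.18 and 14.0 CPM at C5, the latter from 8, 13 and 24 counts. All C5 libraries were far below the C1 libraries, and SERPINA4 fell by 4.50 in log2 units (SE 0.25, adjusted p = 3.37e-16 by edgeR). In panobinostat the levels were 233, 259.8 and 228 CPM at C1 and 267, 192 and 222 CPM at C5. The groups overlapped there, with a log2 difference of -0.10 (SE 0.17, adjusted p = 0.756 by edgeR). In valproic acid they were 245, 253 and 265 CPM and 207, 216 and 175 CPM, which did not overlap but gave no call, with a log2 difference of -0.35 (SE 0.17, adjusted p = 0.207 by edgeR). Panobinostat and valproic acid are chemicals in which SERPINA1 and SERPINA7 were called lower at C5 while SERPINA4 and SERPINA5 were not, although whether SERPINA4 moved less than SERPINA1 was not tested.

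**Figure D2:**
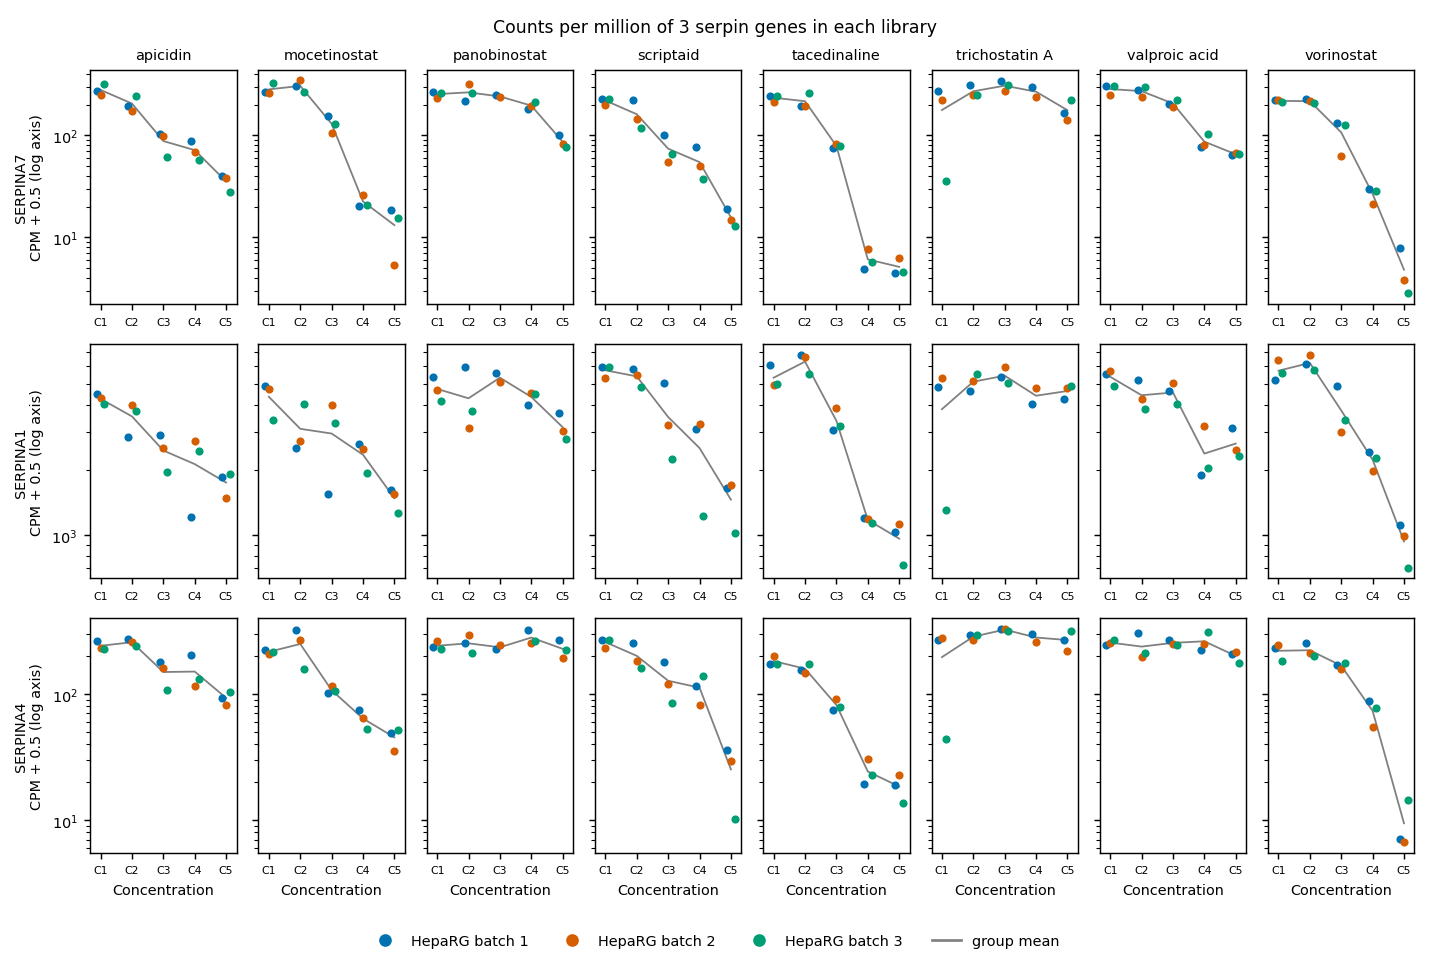
CPM plus 0.5 (log axis) of SERPINA7, SERPINA1 and SERPINA4 in each library (points, coloured by HepaRG batch) at C1 to C5 of 8 chemicals, with group means as lines. SERPINA7 reached means of 4.66 CPM in tacedinaline and 4.34 CPM in vorinostat, SERPINA4 stayed near its C1 level in panobinostat and valproic acid, and the C1 library of batch 3 lies apart in trichostatin A.

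SERPINA5, the protein C inhibitor, which acts on activated protein C and several other proteases, was called lower in apicidin, mocetinostat, tacedinaline and vorinostat. In mocetinostat it had 82.5, 74.5 and 67.8 CPM at C1 and 15.4, 16.8 and 15.9 CPM at C5. The groups were tight and did not overlap, and SERPINA5 fell by 2.15 in log2 units (SE 0.24, adjusted p = 4.65e-06 by edgeR). In valproic acid the direction was the other one, with 77.1, 73.3 and 72.7 CPM at C1 and 103, 90.2 and 133 CPM at C5. The C5 libraries all lay above the C1 libraries, but the log2 change of 0.54 was not called (SE 0.19, edgeR adjusted p = 0.0752). In panobinostat the levels of 53.8, 69.1 and 78.8 CPM and 66.7, 84.2 and 92.2 CPM overlapped. In scriptaid SERPINA5 went from 73.5, 72.3 and 68.0 CPM to 35.3, 26.7 and 18.4 CPM, with a log2 difference of -1.36 (SE 0.53, adjusted p = 0.0604 by edgeR). The groups did not overlap, and the call was made by DESeq2, without the filter on low counts, without replicate 3 and with the replicate block (adjusted p = 0.0395 by edgeR), but not in the analysis used here. The spread was estimated over C1 to C5 together, so replicate 3 of C4, with 4 counts of SERPINA5 against 169 and 194, entered it. Its part in the missed call was not tested.

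In vorinostat SERPINA5 was called in both directions along the concentrations. It had 63.1, 38.7 and 44.5 CPM at C1, 89.0, 90.0 and 92.6 CPM at C3, 57.6, 54.0 and 85.0 CPM at C4 and 18.8, 10.5 and 14.6 CPM at C5. The 3 libraries of C3 lay above all of C1, with a log2 difference of 0.93 (SE 0.23, adjusted p = 0.00779 by edgeR), while those of C5 lay below all of C1, with a log2 difference of -1.65 (SE 0.27, adjusted p = 4.64e-06 by edgeR). Beside it, the C1 mean of SERPINA5 in vorinostat, 48.8 CPM, was the lowest of the 8 chemicals, whose C1 means reached 85.3 CPM. In tacedinaline, the other chemical of that plate with a call, SERPINA5 was 87.7, 61.0 and 67.3 CPM at C3 and 15.5, 17.2 and 39.6 CPM at C5, against 87.5, 63.1 and 88.2 CPM at C1. No rise was called there, and the groups of C1 and C3 overlapped.

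**Figure D3:**
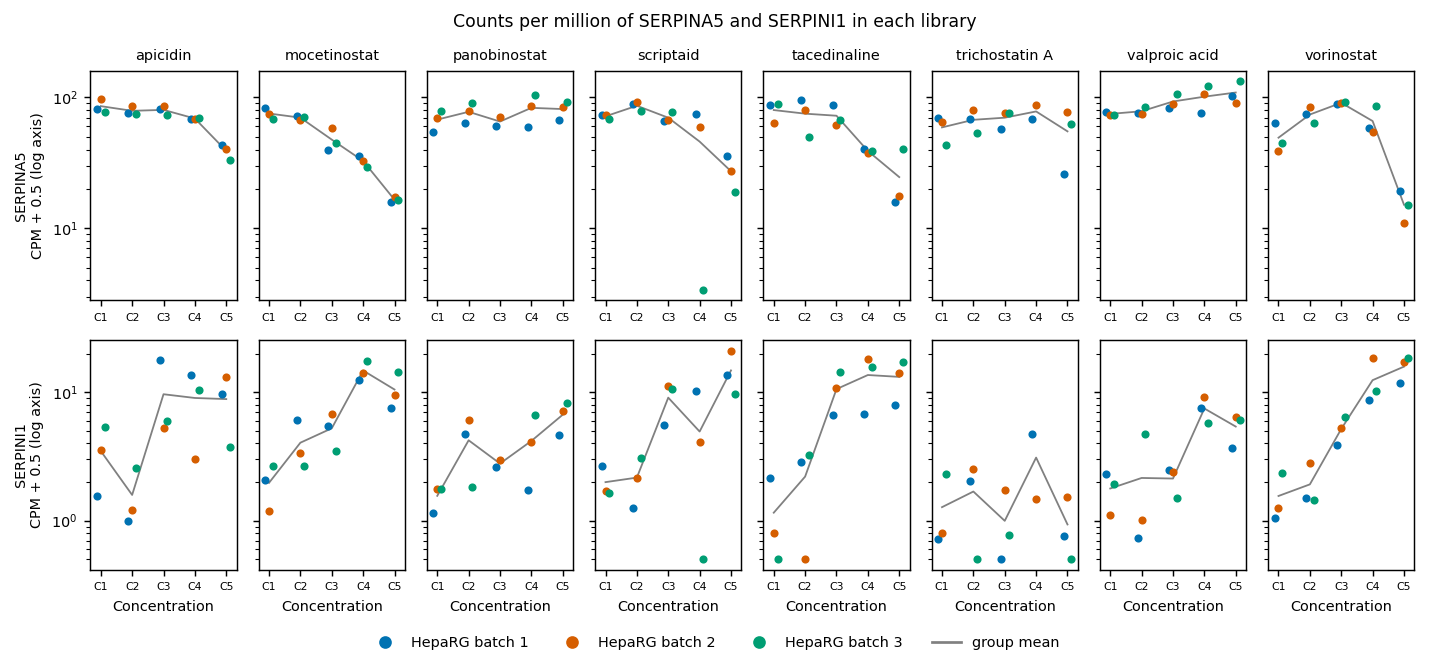
CPM plus 0.5 (log axis) of SERPINA5 and SERPINI1 in each library at C1 to C5 of 8 chemicals, points coloured by HepaRG batch and lines through group means. SERPINA5 is higher at C3 than at C1 and lower at C5 in vorinostat, and SERPINI1 is higher at C5 in the 5 chemicals where it was called, from C1 means of at most 3.00 CPM.

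The hormone carriers SERPINA7 and SERPINA6 do not inhibit proteases. SERPINA7 encodes thyroxine-binding globulin, the main carrier of thyroid hormone in human plasma, and held the largest fitted fall of the set. In vorinostat it had 219, 222 and 209 CPM at C1 and 7.36, 3.33 and 2.34 CPM at C5, the latter from 9, 7 and 4 counts. SERPINA7 fell by 5.64 in log2 units (SE 0.31, adjusted p = 1.74e-16 by edgeR), with no overlap between the groups. In tacedinaline the fall was nearly complete at C4, with 243, 212 and 243 CPM at C1, 74.0, 82.1 and 78.3 CPM at C3, 4.37, 7.24 and 5.21 CPM at C4 and 4.00, 5.86 and 4.12 CPM at C5. The change was -1.56 at C3, -5.30 at C4 and -5.54 at C5 (SE 0.24, edgeR adjusted p = 1.79e-22 at C5). In panobinostat, with 267, 229 and 260.4 CPM at C1 and 100.2, 82.0 and 75.7 CPM at C5, SERPINA7 fell by 1.57 in log2 units (SE 0.17, adjusted p = 1.2e-06 by edgeR). The remaining called changes at C5 lay between -4.39 in mocetinostat and -2.13 in valproic acid, and no C5 library of those chemicals reached a C1 library.

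SERPINA6 encodes corticosteroid-binding globulin, the plasma carrier of cortisol, and had C1 means between 2.15 and 6.30 CPM. At this depth a change was called in the benzamides mocetinostat and tacedinaline. In mocetinostat it had 8.14, 4.54 and 6.21 CPM at C1 and 1.04, 1.03 and 1.22 CPM at C5, the latter from 4, 4 and 4 counts. The groups did not overlap, and SERPINA6 fell by 2.41 in log2 units (SE 0.59, adjusted p = 0.00519 by edgeR), a call lost without replicate 1 or replicate 2. In tacedinaline it had 7, 15 and 16 counts at C1 and 0, 1 and 0 counts at C5, which is the floor, so it was at least 3.76-fold lower. Before that fall it had 14.5, 8.72 and 11.6 CPM at C3, above all C1 libraries, a change of 1.34 that was not called (edgeR adjusted p = 0.217). In vorinostat, where it was not tested, it had 4, 7 and 8 counts at C1 and 3, 2 and 0 at C5, which is the floor as well. In the remaining 5 chemicals the change lay between -1.52 in scriptaid and 0.69 in panobinostat, and the groups overlapped.

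The other genes were measured from few counts. SERPINF1 encodes pigment epithelium-derived factor, a secreted serpin without inhibitory action that restrains vessel growth, and it was called lower in 6 chemicals. In scriptaid it had 44, 36 and 34 counts at C1 and 0, 0 and 3 at C5, which is the floor, so it was at least 8.91-fold lower. In tacedinaline it had 6, 16 and 28 counts at C1 and 0, 0 and 1 at C5, at least 4.40-fold lower. Panobinostat, mocetinostat, valproic acid and vorinostat gave changes of -2.08, -3.01, -2.01 and -2.46. Each of these calls was lost without 1 of the batches at least, and in mocetinostat batch 3, with 4 counts at C1 and 5 at C5, did not follow the others. The call in scriptaid was lost without batch 1 or batch 2. In apicidin the groups did not overlap, with a log2 difference of -1.99 (SE 0.85, adjusted p = 0.0821 by edgeR), and the call was made by DESeq2 and with the replicate block (adjusted p = 0.0438 by edgeR) but not here.

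SERPINB1 encodes the leukocyte elastase inhibitor, a serpin that stays inside cells, and was called lower in apicidin, scriptaid and vorinostat. In vorinostat it had 8, 36 and 19 counts at C1 and 0, 0 and 1 at C5, the floor, so it was at least 3.44-fold lower. In apicidin it had 9.88, 1.42 and 11.9 CPM at C1 and 1.58, 0.733 and 1.24 CPM at C5. The groups overlapped, with batch 2 low at C1, and the change was -2.67 (SE 0.93, edgeR adjusted p = 0.0345). Without batch 1 that call was lost. In scriptaid the change was -2.08 from 12, 15 and 14 to 2, 5 and 0 counts (SE 0.74, edgeR adjusted p = 0.0405), and with the replicate block it lost the call (adjusted p = 0.0520 by edgeR), as it did without any 1 batch. In mocetinostat SERPINB1 was called lower by DESeq2 (log2 change -1.77, adjusted p = 0.0432 by DESeq2) but not here. Since SERPINB1 is also a leukocyte gene, macrophage and leukocyte markers stand beside it. Of that list, 3 of 9 probes could be tested in each chemical (ITGAM, CD14 and CD68), and 8 of those 24 tests were lower and 0 higher (DESeq2 8 and 0, and 9 and 0 at an unadjusted p under 0.05). The probes of TYROBP, PTPRC, CD163 and MARCO had a median of 0 counts over the C1 libraries. The summed level of the list at C1 and C5 was 48.1 to 81.5 and 45.7 to 52.1 CPM in apicidin, at most 66.4 and 42.5 CPM in scriptaid and 49.5 to 65.5 and 18.1 to 35.7 CPM in vorinostat, and its part in the result was not tested.

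SERPINI1 encodes neuroserpin, an inhibitor of tissue plasminogen activator known mainly from neurons, and it was called higher in 5 chemicals. In vorinostat it had 0.553, 0.753 and 1.87 CPM at C1, 3.38, 4.74 and 5.96 CPM at C3, 8.23, 18.0 and 9.68 CPM at C4 and 11.5, 16.6 and 18.1 CPM at C5. All C3, C4 and C5 libraries lay above those of C1, and at C5 the log2 change was 3.85 (SE 0.66, edgeR adjusted p = 9.14e-06). In tacedinaline it had 2, 1 and 0 counts at C1, which is the floor, and 15, 40 and 41 counts at C5, so it was at least 9.27-fold higher. It was called higher from C3 on in tacedinaline, from C4 on in mocetinostat and vorinostat, and at C5 in panobinostat and scriptaid. The call in panobinostat was lost without any 1 batch, and that in scriptaid without batch 2. In valproic acid it was called higher at C4, with 7.07, 8.64 and 5.29 CPM against 1.79, 0.606 and 1.45 CPM at C1, but not at C5, with 3.17, 5.95 and 5.65 CPM and a log2 difference of 1.87 (SE 0.77, adjusted p = 0.129 by edgeR). In apicidin the C1 level of 1.05, 3.07 and 4.86 CPM varied between batches, C5 held 9.20, 12.7 and 3.23 CPM, the groups overlapped and no call was made. In trichostatin A SERPINI1 had 1, 1 and 6 counts at C1 and 1, 4 and 0 at C5. Neuronal markers beside it gave 1 called feature of 16 tested over the 8 chemicals, a probe of GAP43 that was higher in valproic acid, where SERPINI1 was not called at C5. Probes of RBFOX3, SNAP25 and STMN2 had medians of 0 counts at C1 and at C5. SYT1 had medians of 18.5 and 13.5 counts there and was called in 0 of 8 chemicals. TUBB3 had 8.5 and 2.5 counts and was called in 0 of the 4 chemicals where it was tested. The summed level of the list was 6.85 to 11.0 CPM at C1 and 1.90 to 4.91 CPM at C5 of vorinostat, and 6.39 to 11.8 and 2.00 to 11.0 CPM in tacedinaline.

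With all libraries, the first calls came at C3. At C2 edgeR called 0 of the 70 tested pairs of gene and chemical, and DESeq2 also 0, with 6 at an unadjusted p under 0.05, while edgeR called 2 without replicate 3. Of all features, 0.102% were called at C2 in apicidin, 0.191% in mocetinostat, 0.385% in tacedinaline, 0.0172% in vorinostat and 0% in each of the others. Without its library apart, replicate 3, mocetinostat had 29.7% of all features called at C2 and again 0 of the 9 genes. At C3 there were 14 calls, 12 lower and 2 higher, against 6 without replicate 2, 9 without replicate 3 and 23 without the filter on low counts. SERPINA7 was lower in apicidin, mocetinostat, scriptaid, tacedinaline and vorinostat, SERPINA1 and SERPINA4 were lower in 3 chemicals each, SERPINA3 was lower in mocetinostat, and the 2 higher were SERPINI1 in tacedinaline and SERPINA5 in vorinostat. The shares of all features called at C3 were 15.3% in apicidin, 11.6% in mocetinostat, 0.00763% in panobinostat, 1.34% in scriptaid, 11.9% in tacedinaline, 0% in trichostatin A, 1.13% in valproic acid and 7.06% in vorinostat. In scriptaid SERPINA7 was thus 1 of few features called at C3, from 227, 199 and 229 CPM to 101, 54.1 and 65.1 CPM, with a log2 difference of -1.57 (SE 0.31, adjusted p = 0.0149 by edgeR).

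At C4 there were 29 calls, 25 lower and 4 higher, and the 4 higher were all SERPINI1. Tacedinaline had 7 (32.8% of all features called), vorinostat 6 (32.3%), mocetinostat 6 (23.7%), valproic acid 4 (11.9%), apicidin 3 (22.3%), panobinostat 2 (2.56%), scriptaid 1 (4.87%) and trichostatin A 0 (0%). Without its library apart at C4, which had 4 counts of SERPINA5 against 169 and 194 in its mates, scriptaid had 4 calls. These were SERPINA7, SERPINA4 and SERPINA1 lower and SERPINI1 higher, where 9.45% of all features were called. In panobinostat the first genes called were SERPINF1 and SERPINA3, at C4. SERPINA3 had 75.7, 76.1 and 92.6 CPM at C1 and 48.2, 32.4 and 44.8 CPM at C4 there, a change of -0.97, while SERPINA1 had 3994, 4544 and 4479 CPM at C4 and overlapped its C1 level. In valproic acid SERPINF1, SERPINA7 and SERPINA1 were the genes lower at C4.

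Trichostatin A gave no call in these genes at any concentration with all libraries, and its reference rested on 3 libraries of which 1 stood apart. At C1 SERPINA1 had 4815, 5304 and 1309 CPM, SERPINA4 266, 275 and 43.7 CPM and SERPINA7 274, 220.2 and 35.0 CPM. Batch 3 was the lowest in each by far. At C5 SERPINA1 had 4229, 4773 and 4866 CPM and SERPINA7 166, 142 and 219 CPM. Without the C1 library of batch 3, SERPINA3 was called lower at C5, by -1.48 in log2 units (SE 0.26, adjusted p = 0.00477 by edgeR), from 89.5 and 80.4 CPM to 27.5, 19.2 and 44.4 CPM. In that fit 83 features were lower and 21 higher among 12878 tested. SERPINA7 then had a change of -0.48 (SE 0.19, edgeR adjusted p = 0.288), and SERPINA1 and SERPINA4 had -0.12 and -0.01.

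The change from C1 to C5 differed between the 8 chemicals in 8 of the 9 genes. The test was made in 1 edgeR model of all libraries, where 30.3% of 15632 features passed at an adjusted p under 0.05. The edgeR adjusted p was 9.35e-22 for SERPINA7, 2.79e-21 for SERPINA4, 5.34e-10 for SERPINA1 and 8.43e-09 for SERPINA5. It was 0.00672 for SERPINA3, 0.0125 for SERPINB1, 0.0377 for SERPINA6, 0.0392 for SERPINI1 and 0.115 for SERPINF1. Over the 7 chemicals without trichostatin A the test was passed by 6 genes and by 21.4% of all features, with edgeR adjusted p of 1.78e-17 for SERPINA4, 1.11e-14 for SERPINA7, 3.84e-08 for SERPINA5 and 1.64e-05 for SERPINA1. SERPINA6 (0.041) and SERPINA3 (0.049) passed narrowly, while SERPINB1 (0.0697), SERPINI1 (0.267) and SERPINF1 (0.329) did not. With 8 chemicals, SERPINA6 and SERPINB1 failed the test without any 1 replicate, SERPINA3 and SERPINI1 failed it without replicate 2 or replicate 3, and SERPINF1 passed it without replicate 3. The concentration ranges differed between the chemicals, so the test compares the ranges used and not equal doses.

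The genes of the chromosome 14 cluster were set beside their neighbours outside it. In RefSeq order the cluster runs SERPINA10, SERPINA6, SERPINA1, SERPINA11, SERPINA9, SERPINA12, SERPINA4, SERPINA5 and SERPINA3. Of the 10 protein-coding genes beside it, 5 on each side, 9 were in the table, and 54 tests over the 8 chemicals gave 5 lower and 4 higher. The 4 higher were all PPP4R4, which encodes a protein phosphatase subunit and is the nearest on the SERPINA10 side. DICER1 and IFI27 were each called lower in 2 chemicals and SYNE3 in 1, genes that were named after their values were seen. Among 39 tests of the 5 cluster genes described here, 25 were called lower and 0 higher, where the share of all features lower at C5 ran from 0.0154% to 24.9% and that of features higher from 0% to 22.7% over the chemicals.

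**Figure D4:**
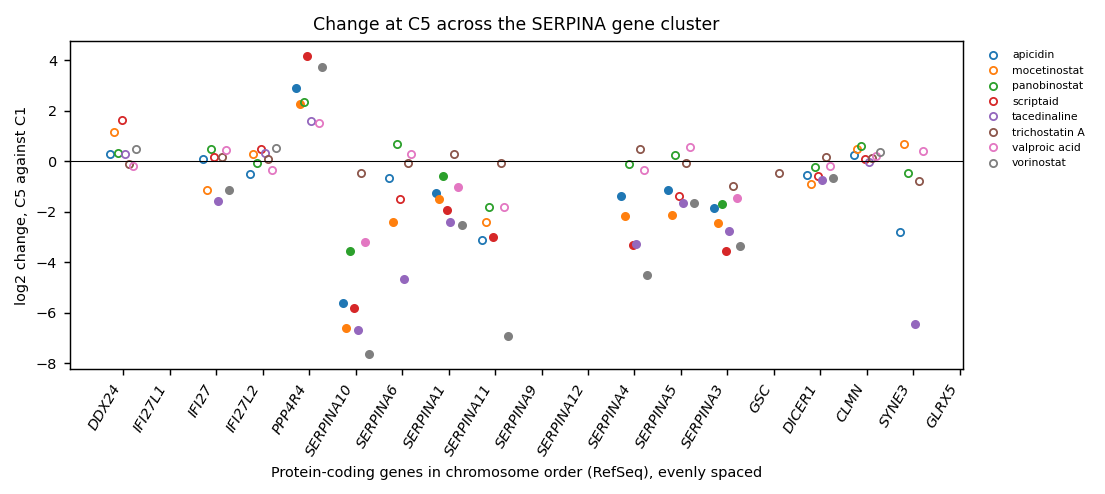
Log2 change at C5 against C1 of the genes of the SERPINA cluster on chromosome 14 and 5 protein-coding genes on each side, evenly spaced in RefSeq order. Each point is 1 feature in 1 chemical (colour), filled where called, and fitted values of features at the floor are no bounds. Points of SERPINA10, SERPINA6, SERPINA1, SERPINA11, SERPINA4, SERPINA5 and SERPINA3 lie mostly below 0, as do those of DICER1 and SYNE3. Those of PPP4R4 lie above it.

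Other genes tied to serpin function were described by counts over the chemicals at C5. Beside these lists and the cell markers, the share of all features lower at C5 ran from 0.0154% in trichostatin A to 24.9% in vorinostat. The share of features higher ran from 0% to 22.7% in the same chemicals. Of 149 tests of other serpins, 45 were lower and 31 higher. SERPINA10, the protein Z-dependent protease inhibitor, and SERPIND1, heparin cofactor II, were lower in 7 chemicals each, and SERPINB2, plasminogen activator inhibitor 2, was higher in 7. The count pools genes that went opposite ways. SERPINC1 and SERPINF2 were also lower in 7 chemicals each and SERPING1 in 6, with 0 higher. SERPINB3, from a median of 0 counts at C1, was higher in 6 and SERPINB7 in 5, with 0 lower. The median log2 change of SERPINB2 over the 8 chemicals was 3.65, and it was -0.96 in trichostatin A. Among the proteases that serpins meet, 39 of 53 tests were lower and 3 higher, with F11 (coagulation factor XI), PLG (plasminogen) and F2 (prothrombin) lower in 7 chemicals each. The 3 higher were the probe of CTSG, cathepsin G, named after its values were seen. CTSG was tested in 4 chemicals, with a group at the floor in 2 of them, and had median counts of 0.5 at C1 and 6 at C5. Of 56 tests of other plasma carriers, 46 were lower and 0 higher by edgeR or DESeq2 or at an unadjusted p under 0.05, and AHSG (fetuin-A), GC (vitamin D-binding protein) and TF (transferrin) were lower in 7 chemicals each. Median log2 changes of the carriers, with features at the floor at their bound, lay between -3.93 and -1.21 in the chemicals other than trichostatin A, against -2.49 to -0.35 for the 9 serpins.

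Genes of protein folding and export in the secretory path gave 16 lower and 3 higher of 97 tests, and their medians lay between -0.33 and 0.15 in the 7 chemicals. In vorinostat 2 of 12 were lower (24.9% of all features), in tacedinaline 3 of 12 (20.1%) and in scriptaid 1 of 12 (17%). Mocetinostat had 3 of 12 (15.7%), apicidin 4 of 13 (15%), panobinostat 2 of 12 (9.46%) and valproic acid 1 of 12 (6.22%). HSPA5, the chaperone BiP, was lower in 6 chemicals, CALR (calreticulin) in 5 and SURF4, a cargo receptor, in 3. Of 106 tests of hepatocyte transcription factors, 50 were lower and 0 higher by edgeR, 57 and 0 by DESeq2, and 64 and 0 at an unadjusted p under 0.05. PROX1 was lower in 7 chemicals and HNF4A and FOXA1 in 6 each. Interleukin 6 and interleukin 1 signalling, which drives acute-phase serpins such as SERPINA3, gave 27 lower and 20 higher of 118 tests, with IL6R lower in 7 chemicals, NFKB1 lower in 6 and a probe of RELA higher in 4. Whether these lists differed from one another was not tested.

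The hepatocyte markers ALB, TTR, TF, AHSG and APOA1 are among the carriers above, and ALB had a median of 83053 counts at C1. Markers of other cells were counted beside them. Biliary and progenitor markers gave 0 lower and 11 higher of 33 tests (DESeq2 0 lower, and 0 at an unadjusted p under 0.05), with SPP1 and SOX9 higher in 5 chemicals each, and probes of EPCAM, CFTR and 1 of KRT7 had medians of 0 counts at C1 and C5. KRT19 in that list was higher in 1 of 8 chemicals by 1 probe (median log2 change 0.21) and in 0 by the other (-0.17). The summed level of that list was 82.7 to 97.3 CPM at C1 and 201 to 226 CPM at C5 of apicidin and was 63.1 to 76.2 and 79.9 to 95.7 CPM in vorinostat. Stellate and mesenchymal markers gave 27 lower and 8 higher of 70 tests, with COL3A1 and ACTA2 lower in 7 chemicals each and COL1A1 higher in 6. Their summed level was 179 to 240.2 CPM at C1 and 129 to 152 CPM at C5 of vorinostat. Endothelial markers gave 1 lower and 0 higher of 10 tests (DESeq2 2 and 0, and 4 and 0 at an unadjusted p under 0.05), and both CDH5 probes and 1 of PECAM1 had medians of 0 counts. The part of these cells in the results on serpins was not tested.

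The 40 groups belong to 8 concentration series and share HepaRG batches, so they are not independent of one another. Features most like each gene over these groups were found by Pearson correlation of mean log2 CPM, among 11288 tested in all chemicals. For SERPINA7 these were ABCA1 (r = 0.978) and GJB1 (0.978), for SERPINA4 SLC30A10 (0.970) and STARD10 (0.966), and for SERPINA1 C6 (0.956) and C4BPA (0.954). For SERPINF1 they were CTSS (0.939) and CIDEB (0.933), for SERPINA5 TMEM37 (0.917) and ANXA4 (0.893), and for SERPINA3 ANPEP (0.914) and LBP (0.914). For SERPINB1 they were TOP2A (0.847) and SNX10 (0.836). Among the 7 genes themselves the highest value was that of SERPINA4 and SERPINA7 (0.937) and the lowest that of SERPINA5 and SERPINF1 (0.530). SERPINA4 was more like SERPINA7, on another chromosome, than like SERPINA1 (0.861), SERPINA5 (0.821) and SERPINA3 (0.678) of its cluster. SERPINA6 was not among the 7. These values describe the groups, with no test.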

How the data were processed

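Libraries were TempO-Seq, in which detector probe pairs are ligated on RNA in lysates and sequenced. The authors deposited 1 table of raw counts per probe, not normalized. The submitters' processing notes name bcl2fastq 2.20.422, fastp 0.23.2, STAR 2.7.10b and DESeq2 1.38.0 without saying which step each served, and the reference and genome build are not given in the sources used here. The last row of the table, which was incomplete, was left out. Groups and batches came from the labels. Each chemical was fitted separately with edgeR 4.0.16 in R 4.3.3 (filterByExpr, TMM scaling, quasi-likelihood F test, Benjamini-Hochberg adjustment over all features). Changes were called at an adjusted p under 0.05 and a fold of at least 1.5. CPM used TMM factors over all 118 libraries. Alternatives were DESeq2 1.42.0, no filter, a replicate block, a trend on log2 concentration and leaving out each replicate. Replicate numbers are HepaRG batches by label, so they pair libraries, and deviations of same-numbered libraries correlated between -0.217 and 0.179. Where nothing says that batches were separate cultures, p-values measure the spread between these libraries only. Named genes were all 9 serpins, the 2 features most like each, and up to 3 features of each other list called in most chemicals in 1 direction, with ties set by median absolute change. Other names were chosen after their values were seen. The genes and lists were chosen with earlier results of these data known. The test at C5 was checked on simulated counts modelled on apicidin, with no library apart and no changes set in the features of lowest counts. That check does not cover the other chemicals or changes at such low counts.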

Additional observations from a re-analysis of the deposited data

Results flagged for a closer look

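The change from C1 to C5 differed between the 8 chemicals in 8 of the 9 serpins by the test of the difference itself in edgeR, which 30.3% of all features passed. The adjusted p was 9.35e-22 for SERPINA7, 2.79e-21 for SERPINA4, 5.34e-10 for SERPINA1, 8.43e-09 for SERPINA5, 0.00672 for SERPINA3, 0.0125 for SERPINB1, 0.0377 for SERPINA6 and 0.0392 for SERPINI1 (edgeR, 118 libraries). Without trichostatin A, whose C1 group held a library apart, SERPINB1 and SERPINI1 no longer passed. SERPINA6 and SERPINB1 also failed without any 1 replicate, and SERPINA3 and SERPINI1 without replicate 2 or replicate 3.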

How the results depend on the processing

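Of the 46 calls at C5, 46 were kept by DESeq2, 45 without the filter on low counts, 45 with the replicate block and 38 with a trend on log2 concentration, while 37, 37 and 39 were kept without replicates 1, 2 and 3. DESeq2 added SERPINA5 in scriptaid, SERPINF1 in apicidin and SERPINB1 in mocetinostat. The trend added SERPINF1 and SERPINI1 in apicidin and SERPINI1 in valproic acid. The replicate block ended the call of SERPINB1 in scriptaid, added SERPINA5 in scriptaid and SERPINF1 in apicidin, and gave 2 endothelial features lower in place of 1. Leaving out each replicate in turn gave 2 to 4 serpins called at C5 of panobinostat (5 with all, 2 without replicate 2 or 3, and 3 by the trend), 4 to 7 of scriptaid (4 without replicate 2), 2 to 3 of valproic acid (2 without replicate 1) and 0 to 1 of trichostatin A. The 1 call in trichostatin A, SERPINA3, came without replicate 3, without the C1 library of replicate 3 alone, and without the filter. Over all chemicals there were 0 to 2 calls at C2 (2 without replicate 3) and 6 to 12 at C3 (6 without replicate 2, 9 without replicate 3, and 23 without the filter). Without replicate 3 of scriptaid C4, chosen after seeing the data like the omission of the C1 library of trichostatin A, scriptaid had 4 calls at C4. The difference between chemicals was passed by 4 to 6 of the 9 serpins (4 without replicate 2, 5 without replicate 3). For the lists, leaving out replicates gave 7 to 12 biliary features higher, 0 to 1 endothelial lower, 29 to 42 transcription factors lower, 13 to 20 interleukin features higher, 0 to 1 neuronal lower and 0 to 1 higher, 1 to 2 proteases higher, 2 to 7 folding genes higher, 5 stellate features higher in each case and 3 to 5 genes beside the cluster lower. Without the filter there were 4 endothelial and 1 neuronal features lower and 7 proteases higher, and DESeq2 gave 2 endothelial features lower. Values that changed sign were all of changes not called. In trichostatin A, over the omissions, SERPINA1 ran from -0.15 to 0.60, SERPINA4 from -0.14 to 0.94, SERPINA5 from -0.37 to 0.38, SERPINA6 from -0.62 to 2.02, SERPINA7 from -0.66 to 0.50 and SERPINB1 from -0.33 to 1.36, on the log2 scale. SERPINA6 was 0.0674 there with the replicate block and 0.34 by the trend, and SERPINA7 was -0.0319 by the trend. Without the C1 library of replicate 3, SERPINA1, SERPINA4, SERPINA6, SERPINA7 and SERPINB1 had -0.12, -0.01, -0.65, -0.48 and -0.12. In panobinostat SERPINA4 ran from -0.26 to 0.0859 (0.0046 by the trend) and SERPINA6 from -0.28 to 1.35. In valproic acid SERPINA6 ran from -0.24 to 0.98 and SERPINB1 from -0.28 to 0.0809, and SERPINA6 in apicidin was 0.11 by the trend. The causes were not tested. Counts limit what can be seen of SERPINA6, SERPINF1, SERPINB1 and SERPINI1, whose C1 means were at most 12.4 CPM.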
